A study of Mus musculus with 2 samples.

Results

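The locus of Foxq1, Foxf2 and Foxc1 is a 280 kb stretch of mouse chromosome 13 between 31.64 and 31.92 Mb (build mm9, which is NCBIM37), selected on the methylation percentages of these same libraries, in which a large demethylated cluster had been seen near Foxc1. Its members were the 473 CpG cytosines of the window that were covered in both libraries, of 826937 such positions in all. Each position is a cytosine on 1 strand, and the 473 positions belonged to 429 CpGs, 11.6 % of the 3709 CpGs that the reference holds in the window. DNA methylation was measured by reduced representation bisulfite sequencing (RRBS), in which genomic DNA is cut with MspI at CCGG, size-selected and treated with bisulfite. Methylated cytosines then remain cytosines in the reads. The paper states that its RRBS did not tell methylated from hydroxymethylated cytosines, so methylation here covers both. The first group was wt mouse embryonic fibroblasts (MEFs; strain C57BL/6, genotype wildtype) and the other was MEFs of the same strain that lack oestrogen receptor β (genotype ESR2 -/-), here called βerko. Each group had 1 library, for which 3 batches of DNA had been pooled. There was thus no replicate and no test of the genotype, and differences between the cell cultures cannot be told apart from differences between the genotypes. The number of embryos behind each culture is not given in the sources used here. No expression values were used here, so the fibroblast identity was not checked against marker genes.

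Forkhead genes encode transcription factors that share a winged-helix DNA-binding domain and act in the patterning of embryonic tissues. Foxc1 acts in the development of the eye, skeleton and blood vessels, Foxf2 in the mesenchyme of the palate and gut and in brain pericytes, and Foxq1 in hair shaft differentiation and the stomach lining. Vertebrate genomes keep these 3 genes side by side, and a related group of Foxf1a, Foxc2 and Foxl1 lies on another chromosome. CpG islands, stretches rich in CpGs that often cover gene starts, are mostly free of methylation, whereas CpGs between genes are mostly methylated, and the flank of an island is called its shore.

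The downstream and upstream stretches of Foxc1 and the distal stretch of Foxf2, where a run of several CpGs differed between the libraries, are shown first, and their reference sequences (plus strand, NCBIM37, written 5′ to 3′ with CpGs in capitals) are printed so that the density of CpGs can be read beside the values. The first, chr13:31902909-31903208, holds 300 bases downstream of Foxc1 with 35 CpGs, of which 32 were covered. Its 35 covered positions averaged 95.02 % in wt MEFs and 0 % in βerko MEFs. The second, chr13:31897929-31898109, lies upstream of the Foxc1 start within the upstream edge of its island, with 10 CpGs and 8 covered positions whose means were 62.6 and 0.321 %. The third, chr13:31707166-31707320, lies upstream of Foxf2, with 16 CpGs and 22 covered positions whose means were 95.1 and 26.4 %.
Foxc1 downstream segment: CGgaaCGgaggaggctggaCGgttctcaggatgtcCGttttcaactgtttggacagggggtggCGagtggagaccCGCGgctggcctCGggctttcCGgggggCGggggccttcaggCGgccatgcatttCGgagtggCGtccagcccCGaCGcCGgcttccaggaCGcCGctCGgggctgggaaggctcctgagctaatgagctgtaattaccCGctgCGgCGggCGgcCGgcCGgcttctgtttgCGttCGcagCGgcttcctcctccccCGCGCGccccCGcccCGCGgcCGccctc
Foxc1 upstream segment: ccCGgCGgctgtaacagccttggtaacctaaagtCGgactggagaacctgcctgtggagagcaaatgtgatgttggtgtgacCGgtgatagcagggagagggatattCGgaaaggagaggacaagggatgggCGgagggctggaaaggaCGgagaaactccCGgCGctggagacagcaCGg
Foxf2 distal segment: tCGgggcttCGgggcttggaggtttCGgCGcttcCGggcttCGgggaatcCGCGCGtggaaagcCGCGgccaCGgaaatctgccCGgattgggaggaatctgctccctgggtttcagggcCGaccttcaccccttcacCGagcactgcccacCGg

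The first segment packs its CpGs close together, whereas those of the Foxc1 upstream segment stand apart in a stretch of lower CpG density. With both strands searched, the MspI word CCGG occurred 4, 3 and 3 times in the 3 segments. The palindromic oestrogen response element GGTCANNNTGACC occurred in none of them, and 0.0304 % of windows of 300 bases, 0.0184 % of windows of 181 bases and 0.0161 % of windows of 155 bases centred on covered CpGs held it. Its half-site GGTCA occurred 1 time in the Foxc1 upstream segment, and 26.1 % of windows of that length held it at least 1 time. The word GCCNNNGGC, bound by AP2 factors, occurred 1 time in the downstream segment, and 29.2 % of windows of that length held it at least 1 time. These are matches of letters and no measurement of binding.

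Across the locus, the mean methylation of the 473 positions was 37.0 % in wt and 16.9 % in βerko MEFs, against 40.7 and 38.8 % over all covered positions. The medians were 7.5 and 0 %. In βerko, 255 positions were lower, 73 were higher and 145 were equal. A total of 93 positions were lower by at least 50 percentage points, which is 19.7 % of the locus (95 % Wilson interval 16.3 to 23.5) beside 2.92 % of all positions. In the other direction, 3 positions were higher by at least 50 points, 0.634 % (0.216 to 1.85), an interval that includes the 1.47 % of all positions. Because the window was chosen for its values, these shares describe it and are no test. Neighbouring positions were often read on the same DNA fragment and PCR copies were not marked, so intervals here cover counting error only.

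The differences were not spread evenly. Of the 149 positions above 80 % in wt, 82 were lower by at least 50 points (55.03 %, beside 6.01 % of all positions above 80 % in wt), while 42 were above 80 % in both libraries and 263 were below 20 % in both. The positions formed 26 blocks separated by gaps of more than 1000 bp. Around the genes the large differences lay in a few of these blocks, and the long stretch between Foxf2 and Foxc1 was highly methylated in both libraries.

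**Figure D1:**
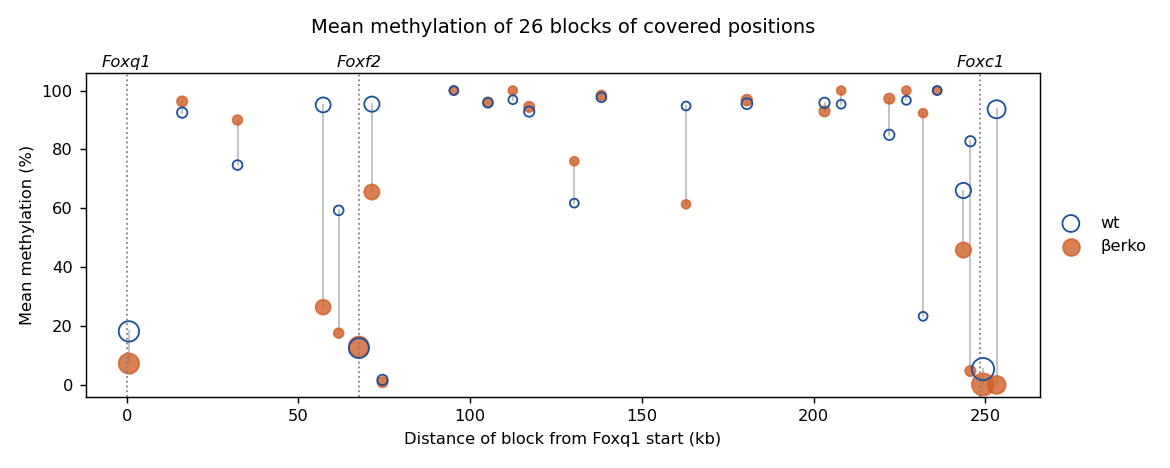
Mean methylation (%) of the 26 blocks of covered positions in wt (open blue) and βerko MEFs (filled orange) against the distance from the Foxq1 start in kb; symbol area grows with the number of positions, grey lines join the libraries and dotted lines mark the gene starts. The last block, downstream of Foxc1, lies at 93.6 % in wt and 0.03 % in βerko, and most blocks between Foxf2 and Foxc1 lie above 90 % in both.

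A differentially methylated position (DMP) needed more than 4 reads per library, and methylation above 80 % in one library with less than 20 % in the other. The locus held 67 hypomethylated DMPs, the kind that is high in wt and low in βerko, beside 0.7 % of all covered positions in the whole series, and no hypermethylated DMP, beside 0.237 %. These 67 were 1.16 % of the 5787 hypomethylated DMPs of the series, in a window with 0.0572 % of the covered positions. The series totals were counted here with the stated read minimum and are lower than the totals that the paper gives. They belonged to 59 CpGs, and neighbouring DMPs often shared an MspI fragment and so the same reads. In wt, 38 of them were at 100 %, and in βerko 52 were at 0 %. The lowest wt value among them was 82.81 % and the highest βerko value 19.23 %. Just outside the thresholds, position 31903082 had 80 % in wt and 0 % in βerko, and position 31707168 had 95.45 and 21.21 %. A total of 26 positions were lower by at least 50 points without being DMPs, 11 of them at or below 80 % in wt and 15 at or above 20 % in βerko.

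Depth at these positions was lower in wt. The 67 DMPs had 5 to 64 reads in wt (median 12) and 6 to 139 in βerko (median 63), and 66 of the 67 had fewer reads in wt. The median ratio of βerko to wt reads was 4.67 in the locus and 1.87 over all hypomethylated DMPs, of which 83.9 % had fewer reads in wt. The part of depth in the methylation differences was not tested. Of the 67 DMPs, 17 had at least 20 reads in both libraries. The depth of positions that are not DMPs is unknown.

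**Figure D2:**
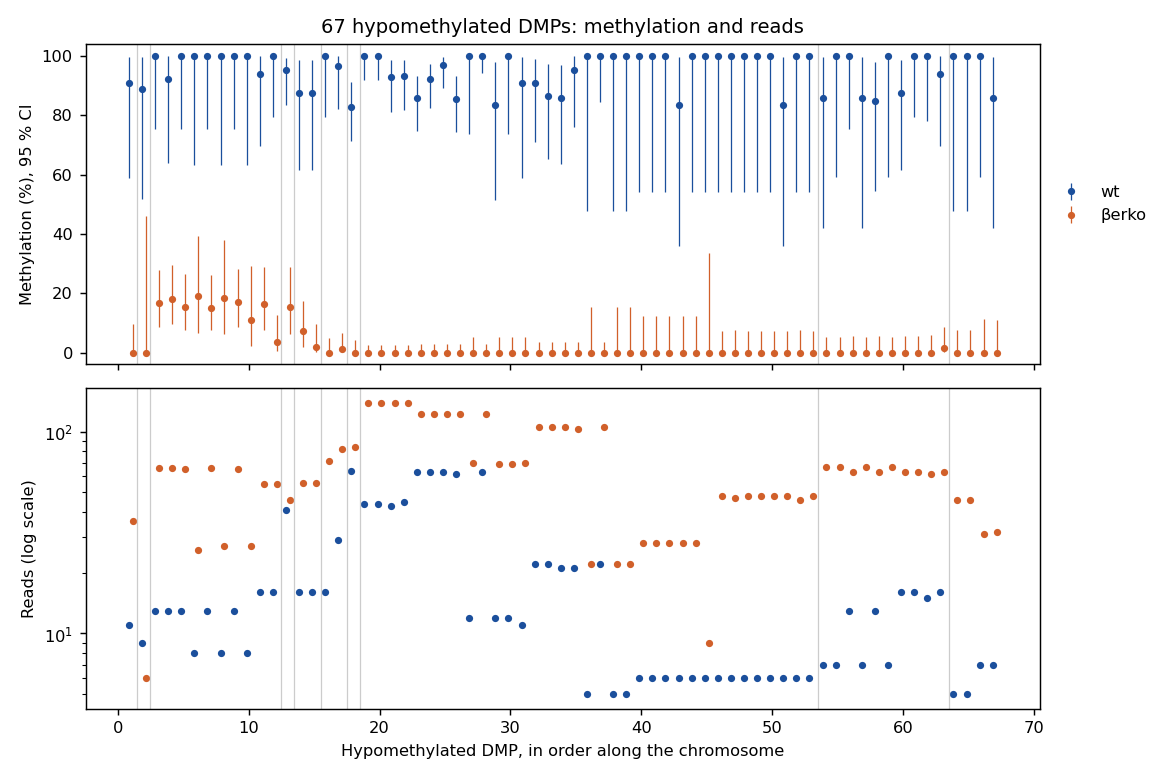
Upper panel, methylation (%) with exact 95 % binomial intervals of the 67 hypomethylated DMPs in order along the chromosome, in wt (blue) and βerko (orange); lower panel, reads at the same DMPs on a log scale, with grey lines where neighbours lie more than 100 bp apart. Intervals are wide in wt where 5 to 7 reads were counted, and βerko has more reads at 66 of 67 DMPs.

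Of the 67 DMPs, 59 fell into 4 clusters (3 or more DMPs, none more than 100 bp from the next). By the same rule the series held 409 clusters among its 5787 hypomethylated DMPs, and the share of those DMPs in clusters was not counted. The paper reports more hypomethylated clusters, by a rule that it does not define. In the locus, 3 of the 4 clusters lay downstream of Foxc1. The largest of the 4 ran from 31902909 to 31903210, 405 to 706 bp past the end of Foxc1, and held 35 DMPs in 302 bp. Their mean methylation was 95.6 % in wt (range 83.33 to 100) and 0 % in βerko at every position. The cluster opened at 31902909 with 44 of 44 reads methylated in wt (exact 95 % interval 92.0 to 100 %) and 0 of 139 in βerko (0 to 2.62 %). It closed at 31903210 with 6 of 6 reads methylated in wt (54.1 to 100 %) and 0 of 48 in βerko (0 to 7.40 %). The opening of this cluster was thus measured with more reads than its end. The second cluster, from 31903384 to 31903430, held 10 DMPs with means of 93.7 and 0.159 %. It opened with 6 of 7 reads methylated in wt and 0 of 67 in βerko, and closed with 15 of 16 in wt and 1 of 63 in βerko. The third, from 31903543 to 31903673, held 4 DMPs with means of 96.4 and 0 %. It opened with 5 of 5 reads methylated in wt and 0 of 46 in βerko, and closed with 6 of 7 in wt and 0 of 32 in βerko.

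All 3 clusters lie in 1 CpG island of 1369 bp (31902641 to 31904009) that begins past the end of Foxc1. Its 53 covered positions averaged 93.6 % in wt MEFs and 0.03 % in βerko MEFs. Each of the 53 was lower in βerko by at least 50 points, and 49 of them were DMPs. The lowest wt value among the 53 was 71.43 % and the highest βerko value 1.59 %, so that the libraries did not overlap. In GENCODE this island lies between Foxc1 and Gmds, a gene for an enzyme of GDP-fucose synthesis. The authors' annotation places part of it in 4930548F15Rik, a transcript with no gene model in the release used here. The nearest covered position before the clusters, 2160 bp away and just past the Foxc1 coding sequence, had 10.61 % in wt and 0 % in βerko. The next covered position beyond the window, 31925679, had 100 and 97.67 %, and the last before the window, 31618644, had 100 % in both.

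Foxc1 itself has a single exon, from 31898515 to 31902504 on the plus strand. A second island, of 3155 bp, covers the start of the gene and ends 2414 bp after the start, before the end of the exon. From 293 bp before the start to 1626 bp after it, 123 positions had means of 0.858 % in wt and 0.175 % in βerko, and each was below 20 % in both libraries. The 41 positions of its 5′ UTR had means of 0.145 and 0 %. Methylation in wt began at the edges of this stretch. In the upstream segment, 408 to 584 bp before the start, wt methylation at the 8 positions was 6.25, 62.5, 100, 96.55, 72.41, 46.34, 39.02 and 78.05 % in order towards the gene. The βerko values were 0 % at 6 of them, 1.22 % at the fourth and 1.35 % at the seventh. All 8 were thus lower in βerko, 5 of them by at least 50 points. The DMPs here were 31897963, with 16 of 16 reads methylated in wt and 0 of 72 in βerko, and 31898011, with 28 of 29 in wt and 1 of 82 in βerko. At the far end of the coding sequence, 3 positions had 24.59, 82.81 and 10.61 % in wt and 0 % in βerko. The DMP among them, 31900715, had 53 of 64 reads methylated in wt (71.3 to 91.1 %) and 0 of 84 in βerko (0 to 4.30 %), which was the deepest wt coverage of any DMP in the locus.

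Further upstream of Foxc1 the difference varied between stretches. At 2872 to 2855 bp before the start, 3 positions had 73.33, 87.5 and 87.5 % in wt and 5.36, 7.14 and 1.79 % in βerko. The last pair were DMPs, with 14 of 16 reads methylated in wt at both, and 4 and 1 of 56 reads in βerko. Some 5327 to 5233 bp before the start, 10 positions had means of 28.4 % in wt and 6.82 % in βerko. The next 7 positions had 84.5 and 52.6 %, and the 8 after them 96.9 and 88.7 %. The mean difference was thus -78.0 points at the triplet and, in order from the farthest of the other stretches, -21.6, -31.9 and -8.24 points.

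**Figure D3:**
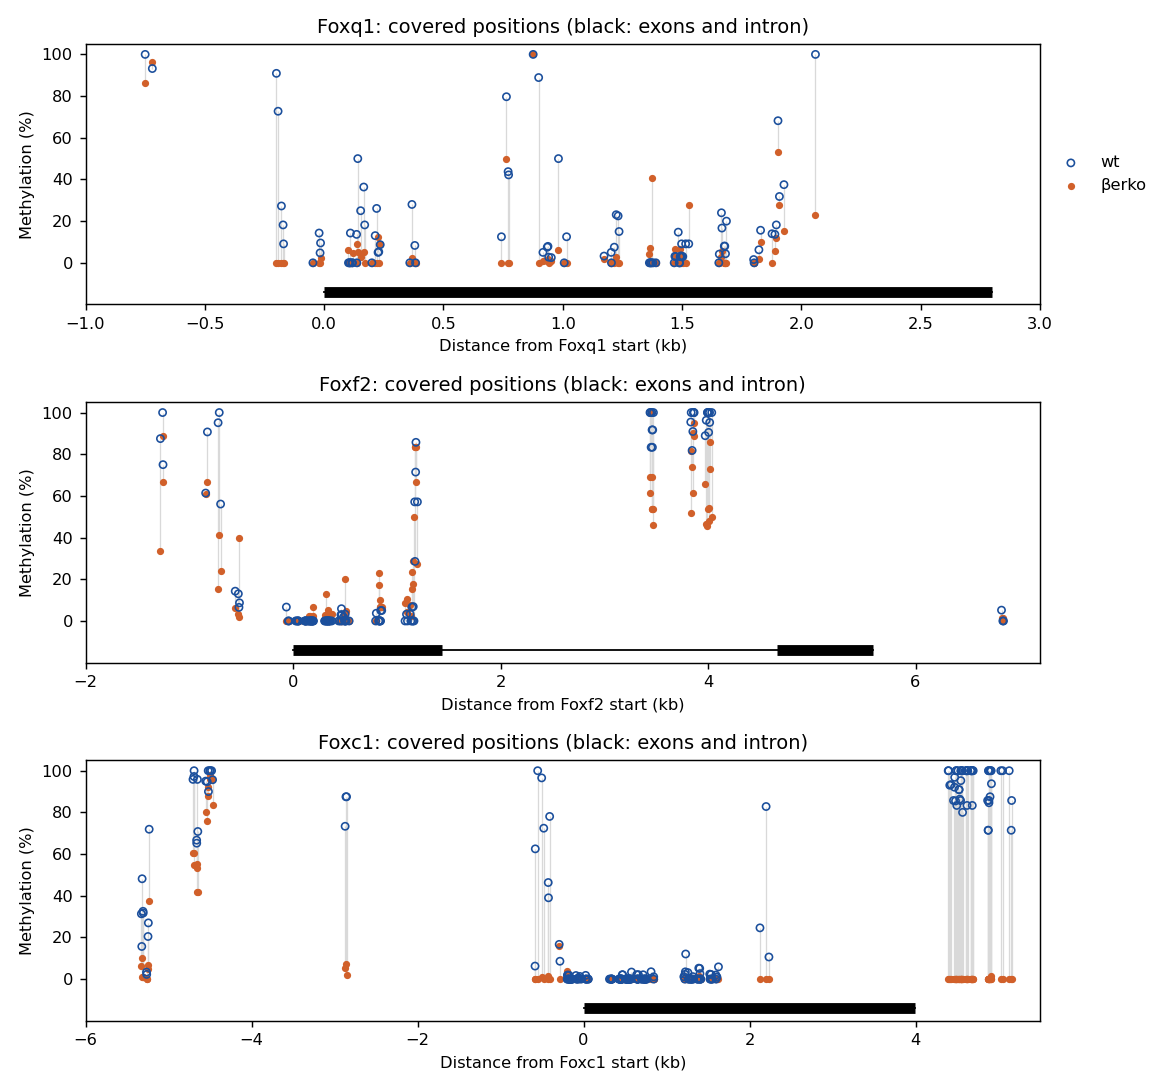
Methylation (%) of single covered positions around Foxq1, Foxf2 and Foxc1 against the distance from each gene's start in kb, in wt (open blue) and βerko (filled orange); grey lines join the libraries and black bars show exons. The Foxc1 exon is near 0 % in both libraries up to 1626 bp after the start, while the 8 positions of its upstream segment and the 53 positions behind it are lower in βerko.

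At Foxf2 (31717685 to 31723272, plus strand, 2 exons) methylation around the start was also low, and the largest difference lay away from the gene. The distal segment, 10517 to 10366 bp before the start, had 22 positions with means of 95.1 % in wt and 26.4 % in βerko, and 19 of them were lower by at least 50 points. Its 10 DMPs formed the fourth cluster, from 31707200 to 31707319, with means of 98.6 and 15.1 %. The cluster opened with 13 of 13 reads methylated in wt and 11 of 66 in βerko (16.67 %, exact interval 8.62 to 27.9), and closed with 16 of 16 in wt and 2 of 55 in βerko. Unlike the clusters downstream of Foxc1, none of its DMPs was at 0 % in βerko. Position 31707176, inside the segment, was at 93.33 % in wt and 93.94 % in βerko between neighbours that differed. The strands also differed at 1 CpG, where βerko had 16.92 % on the plus strand and 70.37 % on the minus strand and wt had 100 % on both. The authors' annotation places the segment in 1700018A04Rik, whose GENCODE model does not reach it. At Gm11378, between the segment and the gene, position 31711753 had 97.67 and 26.14 % and position 31711780 had 20.93 and 9.09 %.

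The upstream shore of Foxf2, 1278 to 698 bp before the start, had 8 positions with means of 83.2 and 49.6 %, and all 8 were lower in βerko. Its DMP, 31716963, had 39 of 41 reads methylated in wt (83.5 to 99.4 %) and 7 of 46 in βerko (6.34 to 28.9 %). From 557 bp before the start to 1159 bp after it, 71 positions had means of 1.41 % in wt and 4.53 % in βerko, with 31 higher and 9 lower in βerko. Small differences in this stretch thus more often ran the other way. Of the 49 covered positions in the coding part of exon 1, 30 were higher in βerko, 7 lower and 12 equal. A stretch of it, 826 to 1159 bp after the start, was bounded with the values known. All 16 positions of that stretch were higher in βerko, with means of 1.88 and 12.3 % and a highest βerko value of 28.95 %. The next 6 positions had means of 49.998 and 65.7 %, and held 2 of the 3 positions of the locus that were higher by at least 50 points, 31718851 (0 and 50 %) and 31718861 (28.57 and 83.33 %). In the intron, 24 positions in an island of 1367 bp had means of 95.4 and 65.5 %. Of these, 23 were lower in βerko and 3 by at least 50 points, and the βerko values ran from 45.71 to 100 %. Such intermediate values may be a share of cells or of alleles, which cannot be told apart in these data. Behind the gene, 3 positions were at 5.19 % or less in both libraries.

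Foxq1 (31650039 to 31652839, plus strand, 1 exon) held 2 DMPs and no cluster. The 5 positions 200 to 170 bp before its start had 90.91, 72.73, 27.27, 18.18 and 9.09 % in wt, in order towards the gene, and 0 % in βerko. The first of them, 31649839, was a DMP with 10 of 11 reads methylated in wt (58.7 to 99.8 %) and 0 of 36 in βerko (0 to 9.74 %). Further upstream, 31649289 had 100 and 86.21 % and 31649319 had 93.22 and 96.49 %. The 23 positions of the 5′ UTR had means of 11.5 and 2.45 %, and the 57 of the coding sequence 15.3 and 7.11 %, of which 38 were lower and 8 higher in βerko. Wt thus held low methylation across the exon that was lower still in βerko. Single positions departed from this. Position 31650915 was at 100 % in both libraries, 31651411 had 0 % in wt and 40.48 % in βerko, and 31652098, in the 3′ UTR, had 100 and 22.73 %. The DMP in the coding sequence, 31650938, rested on 8 of 9 reads in wt (51.8 to 99.7 %) and 0 of 6 in βerko (0 to 45.9 %).

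Away from these stretches, methylation between the genes was high in both libraries. From 31745293 to 31885984, between Foxf2 and Foxc1, 25 positions had means of 90.4 and 94.4 %, and 21 of them were above 80 % in both. The exceptions were 31812888 (94.74 and 61.36 %), 31872124 (63.46 and 93.88 %), 31780356 (61.76 and 76 %) and 31881887 (23.33 and 92.31 %), which was the remaining position higher by at least 50 points. Between Foxq1 and the distal segment, 5 positions had means of 85.4 and 93.8 %. The other gene models in the window were A530084C06Rik, which overlaps Foxq1 on the minus strand, Gm11377, 1700018A04Rik, Gm11378, a U6 gene, Gm11379 and the end of Gmds.

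The 5 islands of the locus can be set side by side. The Foxq1 island (90 positions) had means of 16.5 and 5.41 %, the island at the Foxf2 start (77 positions) 5.19 and 9.30 %, the island in the Foxf2 intron 95.4 and 65.5 %, the Foxc1 island (134 positions) 5.41 and 0.18 %, and the island downstream of Foxc1 93.6 and 0.03 %. Of these, 1 island had a mean lower by at least 50 points, beside 0.756 % of the 10185 islands of the genome with at least 5 covered positions. The islands at the 3 gene starts were low in both libraries, and both islands away from a start were high in wt.

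**Figure D4:**
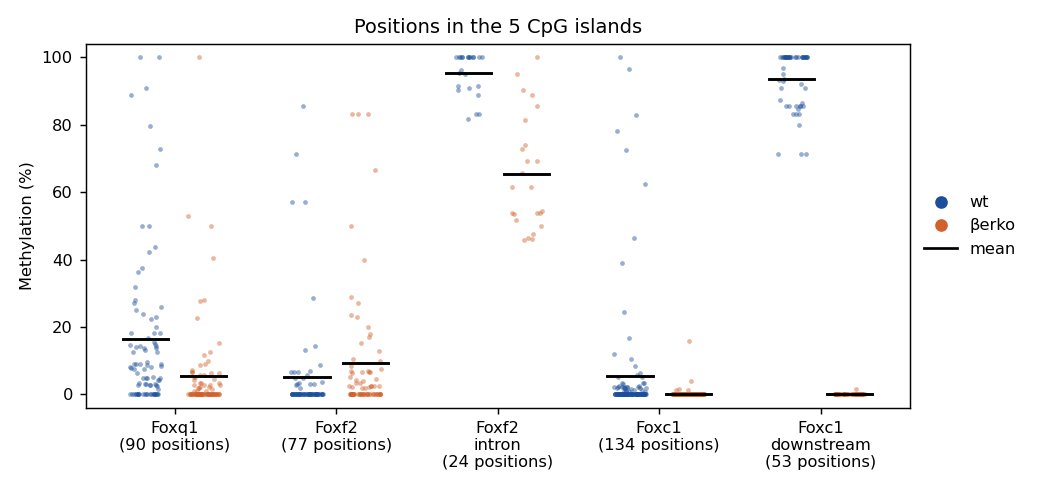
Methylation (%) of the covered positions in the 5 CpG islands of the locus in wt (blue) and βerko (orange), with the mean as a black line and points spread sideways for legibility. In the island downstream of Foxc1 the 53 wt values lie between 71.43 and 100 % and the βerko values between 0 and 1.59 %.

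With 2 kb on either side, Foxc1 had 187 positions with means of 30.4 % in wt and 0.137 % in βerko, Foxq1 92 positions with 18.2 and 7.27 %, and Foxf2 112 positions with 30.0 and 24.0 %. The share of positions lower by at least 50 points was 31.6 % (25.3 to 38.5) at Foxc1, 4.35 % (1.70 to 10.7) at Foxq1 and 5.36 % (2.48 to 11.2) at Foxf2. At Foxc1 most of these positions lay outside the gene, since the gene body alone gave 0.98 %. No position was covered from 2234 bp after the start to the end of the gene, so that stretch is unknown. The distal segment of Foxf2 lies outside these 2 kb.

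Values on the strands were close. For the 44 CpGs covered on both strands, the median difference between strands was 0 points in both libraries, and the 90th percentile was 5.88 points in wt and 7.84 in βerko. Of 13 such CpGs whose mean was lower in βerko by at least 50 points, 11 were lower by that much on each strand.

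The related locus of Foxf1a, Foxc2 and Foxl1 on chromosome 8 (123598286 to 123662929) had a similar number of covered positions, 467, and the same wt mean of 37.0 %, with 31.3 % in βerko. There, 5.35 % of positions (3.65 to 7.78) were lower by at least 50 points and 3.00 % higher. Foxc2, a regulator of lymphatic and kidney development, had means of 31.6 and 7.01 % over 128 positions with 2 kb on either side, and 5 hypomethylated DMPs. Foxf1a, which acts in lung and gut mesenchyme, had 28.0 and 19.5 % over 119 positions, and 3 DMPs. The island over Foxc2 had means of 24.8 and 0.276 %, so it was close to 0 % in βerko as the Foxc1 islands were. The island at Foxl1, which the gene models used here list as a pseudogene, had 86.8 and 88.7 % over 58 positions. Another island near Foxc2, of 864 bp, had 69.3 and 41.8 % over 19 positions, with 3 of them lower by at least 50 points. The remaining islands had 27.9 and 17.8 % near Foxf1a, and 0.308 and 0.0829 % near Foxc2. The chromosome 8 locus thus held no island that was methylated in wt and unmethylated in βerko throughout.

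Among 38 other forkhead genes, 35 had at least 10 covered positions within 2 kb. Of these, 9 had a mean lower in βerko by at least 10 points, beside 9.36 % of 14006 protein-coding genes with as many positions, and none had a mean higher by as much, beside 1.88 %. Their median difference was -5.13 points beside -0.49 over all these genes. The differences with the largest size were at Foxb2 (48.2 and 18.5 %), Foxp2 (45.5 and 19.8 %), Foxe3 (36.3 and 17.6 %), Foxi3 (30.7 and 12.7 %) and Foxo6 (31.6 and 13.6 %). Those with the smallest size were at Foxn3, Foxm1, Foxk2, Foxj3 and Foxn4, whose means differed by at most 0.652 points. Of the 35 genes, 13 had a hypomethylated DMP, beside 13.8 % of the 14006 genes, and 2 a hypermethylated one, beside 5.91 %. Genes with more covered positions have more chances to hold a DMP, and the numbers of positions were not matched. Foxc1 had the lowest difference of the forkhead genes, -30.3 points, followed by Foxb2 with -29.7. Of its 52 hypomethylated DMPs, 49 lay downstream of the gene. Because the window was chosen for the cluster beside Foxc1, this rank describes the choice and is no test.

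**Figure D5:**
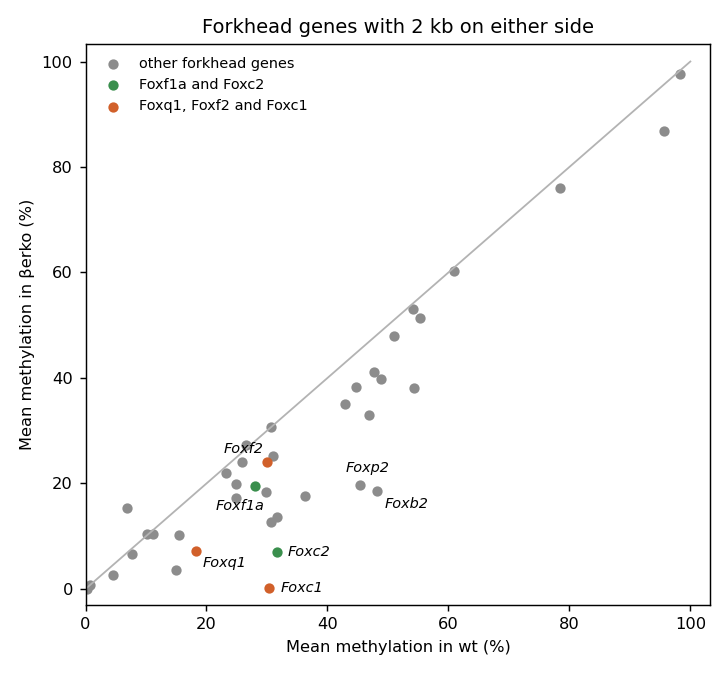
Mean methylation (%) in βerko against wt for forkhead genes with at least 10 covered positions, each with 2 kb on either side; the grey line marks equal values. Foxc1 lies at 30.4 % in wt and 0.137 % in βerko, and Foxc2 at 31.6 and 7.01 %.

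By the means in the 2 libraries, the genes closest to Foxc1 among 11350 protein-coding genes with at least 20 positions were Klf4, a zinc-finger transcription factor, with 29.5 and 4.12 % (distance 4.10 points), Gm10447 with 26.2 and 1.34 % (4.39 points) and 1300014I06Rik with 27.1 and 4.16 % (5.21 points). The Foxc1 means average the island downstream of it (93.6 and 0.03 %) with the island at its start (5.41 and 0.18 %). Like means therefore need not reflect a like pattern along the gene. This likeness rests on 2 libraries and says nothing of shared control. The gene that βerko cells lack, Esr2, had means of 54.0 and 44.8 % over 32 positions with 2 kb on either side, which does not check the genotype.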

How the data were processed

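The authors made 1 RRBS library per genotype. Reads were mapped by the authors to mm9 with the Genomatix Mining Station, whose version and settings are not given in the sources used here, and the submitters' notes name CASAVA 1.4. The authors deposited percent methylation values for the cytosines that both libraries covered, with no read numbers, and, for DMPs, whole read counts per library with an annotation by RegionMiner. Methylated reads at DMPs were recomputed from the percentage and the count.

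All 756270 covered CpGs were CpGs in NCBIM37, and gene models were those of GENCODE vM1. CpG islands had at least 500 bp, 55 % GC and a ratio of observed to expected CpGs of 0.65. Genes named were the members, gene models in the window, the related genes on chromosome 8, the 5 forkhead genes with the largest and the 5 with the smallest difference, and the 3 genes nearest to Foxc1. The members, lists and stretches were chosen with earlier results of these data known. Cluster and island finding were tested on simulated data. Wilson and exact binomial intervals were at 95 %. Tables were handled in pandas 2.3.3 and NumPy 2.4.6 under Python 3.11.15, sequences with pysam 0.24.0, intervals with SciPy 1.17.1 and plots with matplotlib 3.10.9. Alternatives were tried for read minimum, thresholds, strands, gaps, flanks and island definition.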

Additional observations from a re-analysis of the deposited data

How the results depend on the processing

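Of 47 alternatives to 10 results, 34 gave counts within 1.5 times the value reported, or shares within its interval, and 13 did not. The 67 hypomethylated DMPs became 38 with at least 10 reads, 17 with at least 20 reads and 41 with thresholds of 10 and 90 %. The 4 clusters became 1 with at least 20 reads and 2 with gaps of 200 bp. With 30 points in place of 50, the share of lower positions was 25.4 % in the locus, 15.2 % at Foxf2 and 15.6 % at the chromosome 8 locus. With 70 points, it was 0.893 % at Foxf2 and 2.36 % at the chromosome 8 locus, and the share of higher positions in the locus was 0 %. The share at Foxc1 was 0.98 % in the gene body alone. With islands of 200 bp, 50 % GC and a ratio of 0.6, 2 islands were lower by at least 50 points in place of 1, and the added one, of 421 bp, held the distal Foxf2 segment. No hypermethylated DMP was found under any alternative tried. Higher read minimums, stricter thresholds and merged strands could not have raised a count of 0, and for this result they are among the 34. No paired analysis was possible because each group had 1 library and the labels carry no replicate numbers. Low wt depth limits the values downstream of Foxc1, where many DMPs had 5 to 7 reads in wt and wide intervals.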
